A study of Mus musculus with 6 samples.

Results

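The endothelial cells of the Tbx18 line are the 3435 cells that the authors' joint clustering of the 3 Tbx18-tdT libraries placed in its cluster 0, which the study names as endothelial. They were chosen by that deposited cluster number alone and make up 3435 of the 6578 Tbx18-tdT cells and of the 17033 cells in all 6 libraries of the series. The study compared cortical cells of 2 reporter lines, Tbx18-CreERT2/Ai14-flx and NG2-CreERT2/Ai14-flx, in which tamoxifen switches on the red protein tdTomato in cells that use the Tbx18 or the NG2 (Cspg4) promoter. Adult mice aged 3 to 4 months were left uninjured (naive), or received an intracerebral injection of saline (physical injury) or of endothelin-1 with L-NAME (ischemic injury) 3 days before the cortex was collected. In the injured mice tamoxifen came 7 days before the injection. Endothelin-1 constricts vessels and L-NAME blocks nitric oxide synthesis, so together they narrow cortical vessels locally. tdTomato-positive, DAPI-negative cells were sorted, and each condition of each line is 1 droplet library made from pooled cortices of several mice. With 1 library per condition nothing can be tested between conditions, and every interval below covers counting error only.

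Endothelial cells line the vessels. In the brain they are joined by tight junctions, carry dedicated transporters and keep transcytosis low, which together make the blood-brain barrier, and Wnt signalling from neighbouring cells is known to maintain that state. Their gene use changes along the vascular tree, from arteries through capillaries to veins, and it is mainly in postcapillary venules that inflamed endothelium displays selectins and adhesion molecules to passing leukocytes. Tbx18 itself is known as a gene of the mural cells outside the endothelium, that is, pericytes and smooth muscle cells, and the reporter is driven by that promoter.

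The endothelial cells numbered 159 in the naive library, 1788 after the physical and 1488 after the ischemic injury. Their summed depth was 741683, 12311618 and 14091363 unique molecular identifiers (UMIs, 1 per captured transcript), with medians of 2600, 6701.5 and 8981 UMIs per cell, so the naive values are the least precise. A count of 0 allows a level of up to 4.04 CPM (UMIs scaled to a total of 1000000 over these cells) in the naive library, 0.244 after the physical and 0.213 after the ischemic injury (3 counts). The physical and ischemic libraries shared 3 cell barcodes, 2 of them in endothelial cells, and neither shared one with the naive library.

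The 6 marker genes of the population were high in each library and low in all other cells of the same library. Cldn5, the main claudin of brain tight junctions, stood at 3070.0, 4889 and 4939 CPM in naive, physically injured and ischemic endothelial cells, against 106, 61.8 and 101 CPM in all other cells. Flt1, a receptor for vascular endothelial growth factor (VEGF), stood at 5946, 5283 and 5474 CPM. Slco1a4, an organic anion transporter of the barrier, stood at 1298, 1886 and 1874 CPM. Of these, Cldn5 and Slco1a4 were lowest in the naive library and Flt1 was highest there. Ly6c1, a surface protein of brain endothelium, stood at 2749, 3329 and 3042 CPM. Pecam1 and Cdh5, adhesion proteins of endothelial junctions, ranged from 442 to 742 CPM. Of 18 endothelial identity genes, all passed the filter on low values (a mean of at least 30 CPM over the 3 libraries) and 0 differed 2-fold between an injured library and the naive one. That count is near the background, since 0.757% and 2.36% of all genes were 2-fold higher and lower after physical injury and 1.05% and 2.29% after ischemic injury.

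To compare single cells at equal depth, each cell was thinned to 1500 UMIs, which left out 39 naive, 108 physically injured and 29 ischemic endothelial cells. A Cldn5 UMI was then seen in 87.5% (80.2 to 92.8, exact binomial interval) of 120 naive cells, 99.4% of 1680 physically injured cells and 99.5% of 1459 ischemic cells, and before thinning in 86.2%, 98.8% and 99.7%. In the pericyte cluster of the same libraries, where Cldn5 is not known to be made, the thinned shares were 0.905%, 6.38% and 5.80%, at median depths of 6547.5, 2540.0 and 3791.5 UMIs before thinning. Cldn5 thus went with the label in nearly all injured cells and in most, but fewer, of the naive cells. Many naive cells also carried transcripts of mural cells, as the next values show.

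**Figure D1:**
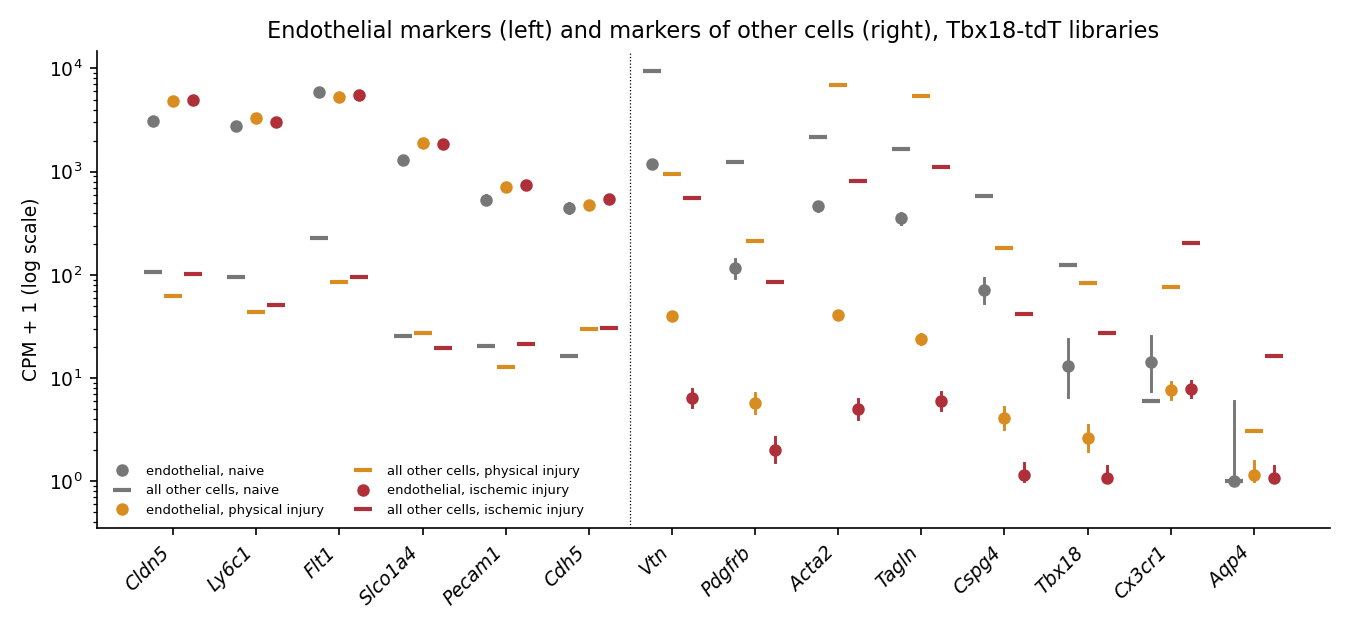
Levels of the 6 endothelial markers (left of the dotted line) and of 8 genes of other cells (right) in endothelial cells (points with 95% counting intervals) and in all other cells (dashes) of each Tbx18-tdT library, as CPM plus 1 on a log scale. The endothelial points lie above the dashes for each marker on the left, and on the right the grey naive points for Vtn, Pdgfrb, Acta2, Tagln and Cspg4 stand far above the points of the injured libraries.

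The naive endothelial cells carried transcripts of mural cells, which bears on each comparison with them. Vtn, a matrix protein typical of brain pericytes, stood at 1192 CPM in naive, 38.8 in physically injured and 5.46 in ischemic endothelial cells. Acta2, smooth muscle actin, stood at 459.8, 40.3 and 4.04 CPM. The 10 pericyte markers summed to 4062 CPM in the naive cells, 369 after the physical and 106 after the ischemic injury, with Rgs5 the most abundant at 1855, 272 and 88.9 CPM. The 8 smooth muscle markers summed to 1681, 187 and 61.5 CPM. In 79 of the 159 naive cells (49.7%) these mural genes made up more than 1% of the UMIs, against 13 cells (0.727%) after physical injury and 1 cell (0.0672%) after ischemic injury.

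The naive cells were also clustered by the authors in another table, together with the naive NG2-tdT library, and that table divided them. There, 63 of the cells fell in cluster 10, with a median of 6996 UMIs and 0.122% mural UMIs. A further 19 fell in cluster 13, with 8608 UMIs and 0.0558% mural UMIs. Another 68 fell in cluster 6, with 1522.5 UMIs and 2.22% mural UMIs, and 9 fell elsewhere. Cluster 6 cells carried 5483 CPM of Vtn and 2709 CPM of Acta2 beside 1359 CPM of Cldn5, whereas cluster 10 cells carried 199.9 CPM of Vtn, 79.1 of Acta2 and 3804 of Cldn5. Cluster 13 was rich in arterial genes, with 568 CPM of Gkn3 against 13.2 in cluster 10, and 629 CPM of Vegfc against 6.59. The 82 cells of clusters 10 and 13 held 83.7% of the naive endothelial UMIs, and they serve below as an additional naive reference, chosen after the data had been seen.

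**Figure D2:**
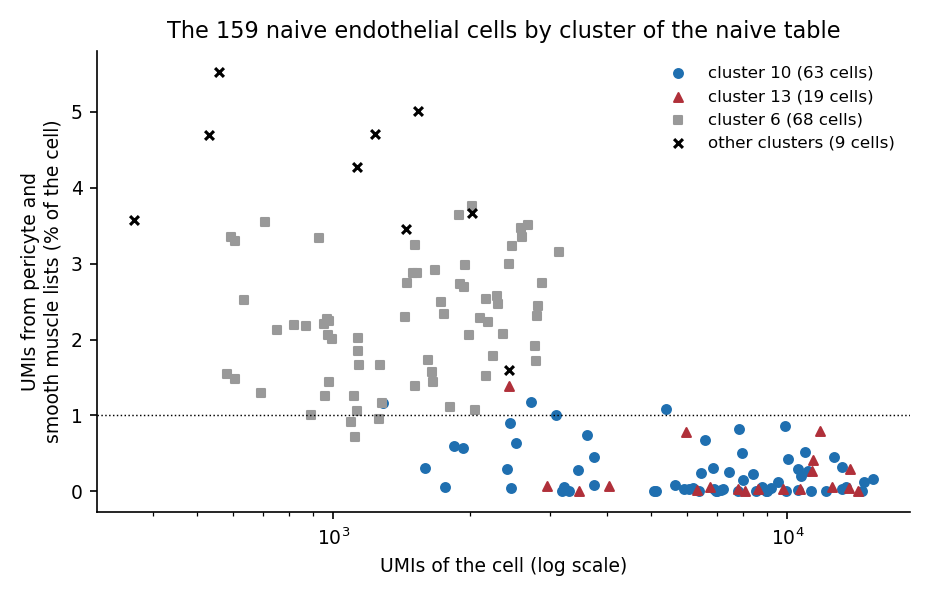
Each point is 1 of the 159 naive endothelial cells, placed by its UMIs (log scale) and by the percentage of its UMIs from the pericyte and smooth muscle lists, with the shape giving its cluster in the authors' naive table; the dotted line marks 1%. The 68 cells of cluster 6 lie at low depth and mostly above the line (65 of them), and the 82 cells of clusters 10 and 13 lie at high depth and mostly below it (5 of them above it).

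Myeloid, fibroblast, neuron and oligodendrocyte markers were scarce. The 12 myeloid markers summed to 18.9, 48.2 and 44.2 CPM in the naive, physically injured and ischemic endothelial cells, with Cd74 the most abundant after injury (0, 11.8 and 12.6 CPM) and 8 of the 12 at 0 in the naive cells. In all other cells of the same libraries they summed to 32.3, 7533 and 19264 CPM. The 8 fibroblast markers summed to 58.0, 20.3 and 7.81 CPM, the 6 neuron markers to 37.8, 9.10 and 9.51 CPM and the 8 oligodendrocyte markers to 9.44, 5.60 and 3.19 CPM. The 8 markers of the astrocyte list summed to 897, 592 and 617 CPM, against 134, 236 and 396 CPM in the other cells. Of that sum S1pr1, a sphingosine phosphate receptor that endothelial cells also make, held 801, 526 and 540 CPM and the connexin gene Gja1 80.9, 59.7 and 69.7 CPM, while the defining markers Aqp4 and Gfap were at 0 in the naive cells and under 1 CPM after injury. Tbx18 itself stood at 12.1 CPM in naive endothelial cells, 1.62 after the physical and 0.0710 after the ischemic injury, and at 1.61 CPM in the naive cells of clusters 10 and 13. In all other cells Tbx18 stood at 124, 82.5 and 26.5 CPM. The cells were sorted on the reporter protein, and the tdTomato transcript was not analysed here.

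Endothelial cells made up 23.2% (20.1 to 26.5) of the naive library, 46.5% (44.9 to 48.1) of the physical injury library and 72.7% (70.7 to 74.6) of the ischemic library. The share was higher by 23.3 percentage points (19.6 to 26.8) after physical injury and by 49.5 points (45.6 to 53.2) after ischemic injury than in the naive library. These are shares of sorted, deposited cells, so the sort, cell survival and the numbers of the other cell types all enter them, and more endothelial cells and fewer other cells cannot be told apart. In the NG2 line the endothelial cells were 2.35%, 15.8% and 12.6% of the naive, physical injury and ischemic libraries (101, 404 and 453 cells). Without the cells over 1% mural UMIs, the naive share in the Tbx18 line was 11.7%. With cells called by marker lists the naive, physical and ischemic shares in that line were 5.54%, 34.7% and 53.9%.

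Between injured and naive endothelial cells, the number of genes that differed 2-fold depended on the filter and the averaging. Levels were compared as log2 ratios of CPM after adding 5 CPM to both, over the 5416 genes past the filter, and the ratio of a gene with few naive counts is understated on that scale. After physical injury 41 genes (0.757%) were at least 2-fold higher and 128 (2.36%) at least 2-fold lower than in the naive cells. After ischemic injury 57 genes (1.05%) were higher and 124 (2.29%) lower. With the mean of each cell's CPM in place of the sum, 110 and 356 genes were higher and lower after physical injury and 145 and 320 after ischemic injury, and at a mean of at least 10 CPM the counts were 112 and 331, and 127 and 312. Both comparisons use the same naive library, so they are not independent. The median log2 ratio of all genes was -0.0060 and -0.0037.

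Against the 82 naive cells of clusters 10 and 13, all 41 and all 57 of the higher genes kept their direction, and 29 and 45 of them remained 2-fold higher. Of the lower genes, 84 of 128 and 93 of 124 remained 2-fold lower against those cells, with the gene set held to that of the main filter. Pericyte and smooth muscle markers were 14 of the lower genes in each comparison. In the other cells of the same libraries, 66 of the 128 and 94 of the 124 lower genes were also 2-fold lower, and 11 of the 41 and 17 of the 57 higher genes also 2-fold higher. Of all 5416 genes, 398 (7.35%) and 969 (17.9%) were 2-fold lower and 370 (6.83%) and 596 were 2-fold higher in those other cells after physical and ischemic injury.

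The genes that were higher after injury included a group that inflamed venules are known to use. Icam1, the ligand for leukocyte integrins (GRCm38 chromosome 9, 21015985 to 21028817), stood at 71.5 CPM (53.5 to 93.5) in naive, 228 (219.8 to 237) in physically injured and 329.6 (320.2 to 339) in ischemic endothelial cells. Its log2 ratio to the naive cells was 1.61 and 2.13, and 1.37 and 1.89 against clusters 10 and 13. In all other cells of these libraries Icam1 stood at 3.73, 29.9 and 56.8 CPM. The 3 endothelial intervals did not overlap.

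Vcam1, another leukocyte adhesion molecule, stood at 76.9, 149 and 269 CPM. Vwf, the clotting factor stored in endothelial granules (chromosome 6, 125546774 to 125686679), stood at 152, 309 and 535 CPM. Both passed 2-fold after ischemic injury only (log2 ratios of 1.74 and 1.78) and came close to it after physical injury (0.92 and 1.00, the latter just under the threshold), and the difference between the injuries was not tested. Lrg1, a secreted glycoprotein that modifies TGF-beta signalling (chromosome 17, 56119678 to 56122001), had 0 UMIs in the naive cells and stood at 40.5 and 95.9 CPM after the injuries. Set against the naive limit of 3 counts, Lrg1 was at least 10.0-fold and at least 23.7-fold higher.

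3 venule genes of this kind were too low on average for the filter and were at 0 in the naive cells. Ackr1, a chemokine-binding receptor of venules, stood at 0, 24.9 and 51.9 CPM. Selp, which encodes P-selectin, stood at 0, 6.34 and 40.0 CPM. Sele, which encodes E-selectin, stood at 0, 6.09 and 16.0 CPM. The ischemic values were 12.8-fold, 9.90-fold and 3.97-fold the naive limit of 3 counts. Each of the 3 was higher after ischemic than after physical injury. Cxcl10, a chemokine for T cells that was also below the filter, stood at 2.70, 3.09 and 33.1 CPM.

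Over the whole list of 20 adhesion and cytokine response genes, 15 passed the filter, of which Lrg1, Lcn2, Cxcl1 and Ch25h were under 30 CPM in the naive cells and passed only through the injured libraries. Of the 15, 4 were 2-fold higher after physical injury (Icam1, Lcn2, Lrg1 and Cxcl1) and 8 after ischemic injury (these 4 with Vcam1, Il1r1, Ch25h and Irf1), and 0 were 2-fold lower in either, beside 0.757% and 1.05% of all genes higher. The 4 genes that passed only through the injured libraries had to differ, so the counts and the median of this list are a description. This also holds against clusters 10 and 13. The list's median log2 ratio was 0.27 and 1.14, beside -0.0060 and -0.0037 for all genes. Against clusters 10 and 13 the counts were 4 and 7. Lcn2, an iron-binding protein of the acute phase, stood at 8.09, 50.0 and 63.7 CPM, and Cxcl1, a neutrophil chemokine, at 29.7, 68.7 and 113 CPM. Nfkbia, the inhibitor of NF-kB, stood at 1211, 1462 and 1422 CPM, and Socs3, a feedback inhibitor of cytokine receptors, at 344, 347 and 395 CPM.

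**Figure D3:**
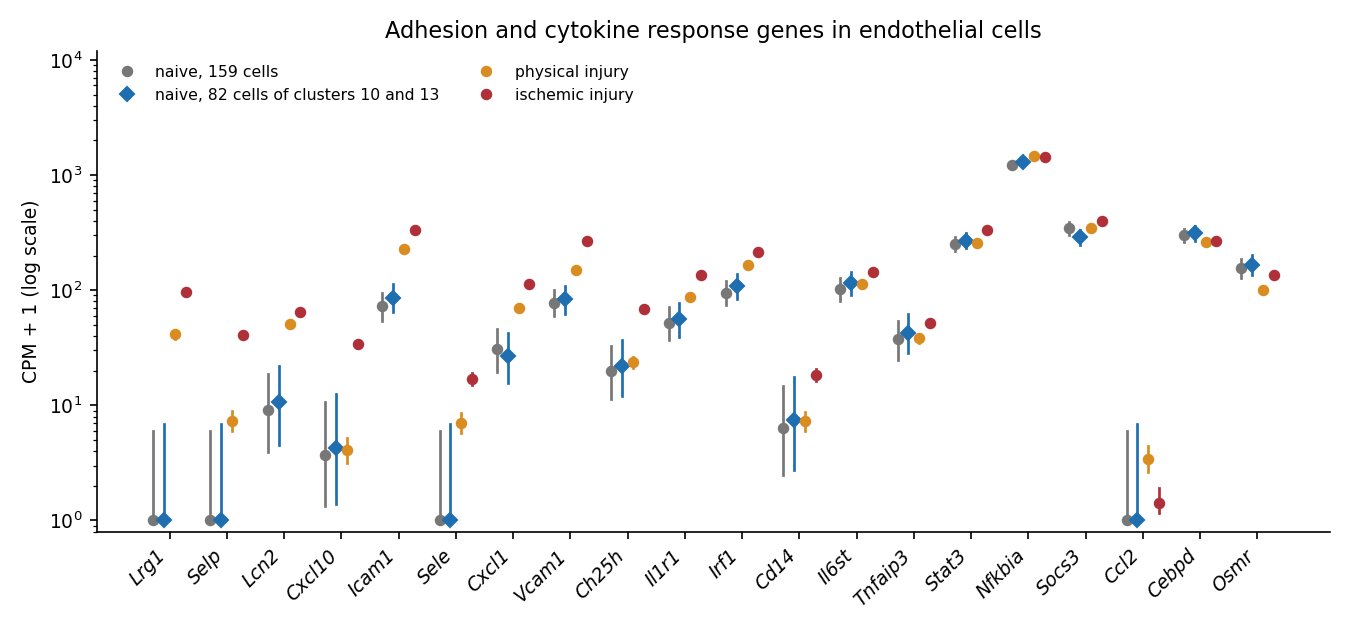
Levels of the 20 adhesion and cytokine response genes in endothelial cells, as CPM plus 1 on a log scale with 95% counting intervals, ordered by the ischemic ratio. Grey and blue points are all 159 naive cells and the 82 naive cells of clusters 10 and 13; for Lrg1, Icam1, Vcam1 and Cxcl1 the injured points lie above both naive points, and for Nfkbia, Socs3 and Cebpd the points lie close together.

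Other genes chosen for the size of their ratio and for being at least as high in endothelial as in other cells were of mixed function. Ptgs2, the inducible cyclooxygenase that makes prostaglandins, stood at 5.39 CPM in naive, 37.0 in physically injured and 113 in ischemic endothelial cells. Scgb3a1, a secretoglobin, stood at 6.74, 39.7 and 109 CPM, against 0.829, 0.391 and 1.13 CPM in all other cells. Slc38a5, a glutamine transporter that is strongest in veins, stood at 53.9, 165 and 151 CPM. These 3 genes were 2-fold higher in both injured libraries, also against clusters 10 and 13, though Slc38a5 had log2 ratios of 0.87 and 0.75 against cluster 10 alone. Zfp521, a zinc finger transcription factor, stood at 9.44, 44.0 and 68.1 CPM. Hs3st1, a heparan sulfate sulfotransferase, stood at 29.7, 87.0 and 78.6 CPM, with log2 ratios of 0.98 and 0.84 against cluster 10 alone. Ptgs2, Scgb3a1, Zfp521 and Hs3st1 were under 30 CPM in the naive cells and passed the filter only through the injured libraries. Their ratios are therefore a description. Cpe, which processes peptide hormones, stood at 45.8, 131 and 182 CPM, with 277 CPM in the other cells of the physical injury library.

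The highest ratios of all were those of the 4 hemoglobin genes, and they rested on very few cells. Hbb-bs stood at 4.04, 2142 and 2158 CPM. After physical injury 14 of the 1788 endothelial cells had 10 or more hemoglobin UMIs and held 99.5% of all hemoglobin UMIs (50722 of 50972). After ischemic injury 11 of 1488 cells held 99.7% (58198 of 58368). These cells also held 90 and 81 UMIs of Alas2, the heme synthesis enzyme of red cell precursors, against 4 and 6 in all the rest, and Cldn5 stood in them at 2267 and 3872 CPM. Without the hemoglobin-rich cells the summed hemoglobin level was 10.9, 20.5 and 12.2 CPM in the naive, physical and ischemic cells, and 37 genes rather than 41 were 2-fold higher after physical injury and 58 rather than 57 after ischemic injury. The paired copies Hba-a1 and Hba-a2, and Hbb-bs and Hbb-bt, are nearly identical, so how their reads were divided is uncertain.

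Both copies of the inducible HSP70 gene were lower after injury. Hspa1b, a stress-induced chaperone, stood at 2048, 415 and 391 CPM, and its near-identical copy Hspa1a at 2254, 1112 and 971 CPM, so the division between them is uncertain. Hsph1, a co-chaperone, stood at 178, 50.3 and 51.7 CPM. In the other cells of the same libraries Hspa1b was lower as well, at 1276, 113 and 115 CPM. Of 17 immediate early and heat shock genes, 2 were 2-fold lower after each injury (these 2 copies), where 2.36% and 2.29% of all genes were lower, the list's median log2 ratios were -0.34 and -0.20, and 1 was higher after ischemic injury, the early response gene Ier3 (577, 1072 and 1231 CPM). Against clusters 10 and 13, Hspa1a was no longer 2-fold lower after physical injury (log2 ratio -0.96). Fos, a transcription factor that cell dissociation is known to induce, stood at 7173, 7523 and 7453 CPM. Whether handling of the libraries had a part in these values was not tested.

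Among the other genes with the lowest ratios were some that overlap another gene and some that do not. Gm48099, a long noncoding RNA (chromosome 14, 19271274 to 19282822), stood at 1383 CPM in naive endothelial cells, 70.8 after the physical and 127 after the ischemic injury, and at 655, 43.8 and 59.5 CPM in the other cells. Ccdc152 stood at 260.2, 18.6 and 23.2 CPM. It lies on chromosome 15 (3280070 to 3303526) across the opposite-strand gene Selenop, which stood at 1195, 1136 and 1068 CPM. Ulk4 stood at 82.2, 12.3 and 13.9 CPM and overlaps Ctnnb1 on the other strand, which stood at 522, 527 and 526 CPM. Lysmd4, Syn3, Znhit1 and Camk1d likewise overlap a gene of the other strand (Mef2a, Timp3, Plod3 and Gm13216), as do Fgf13, a regulator of sodium channels (221, 51.7 and 46.1 CPM), and Il1rapl1, a synaptic adhesion protein (log2 ratios of -1.81 and -1.15). Polr1b, a subunit of RNA polymerase I, overlaps no annotated gene and stood at 79.5, 10.2 and 15.8 CPM. Gm48099 and Rpl9-ps6 (299, 76.3 and 102 CPM) overlap none either, and Rpl9-ps6, a copy of the ribosomal protein gene Rpl9, may share reads with it. Genes that were higher, such as Icam1 and Vcam1, overlap opposite-strand genes as well, and the part of overlaps in the ratios was not tested. Ccn3, a secreted matrix-associated protein, stood at 159, 11.7 and 15.7 CPM, but at 2.20 CPM in the naive cells of cluster 10 alone, where its direction was the reverse. Without the condition that endothelial cells hold the higher level, the lowest ratios after physical injury included Grm7 (128, 1.06 and 0.639 CPM) and Lama2 (135, 2.76 and 0.710 CPM). Grm7 and Lama2 stood at 1293 and 924 CPM in the other naive cells. Ccdc152, Ulk4, Il1rapl1, Polr1b, Ccn3, Grm7 and Lama2 were under 30 CPM in both injured libraries. They passed the filter only through the naive cells, so their ratios are a description. In the NG2 line Ccdc152 stood at 23.5, 10.8 and 16.0 CPM and Lysmd4 at 31.4, 26.3 and 23.4 CPM, beside 113, 26.3 and 30.2 CPM for Lysmd4 in the Tbx18 line.

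Gene length moved with the ratios. When the genes past the filter were divided into 5 equal groups by intron length (99.5% had a length), the median log2 ratio after physical injury went from 0.17 in the group with the shortest introns to -0.19 in the group with the longest, and after ischemic injury from 0.097 to -0.053. In the other cells of the Tbx18-tdT libraries it went from 0.17 to -0.38 and from 0.021 to -0.50. In NG2-tdT endothelial cells it went the other way after physical injury, from -0.11 to 0.26, and was nearly flat after ischemic injury, from 0.028 to -0.026. The genes 2-fold lower after physical injury had a median intron length of 39394.5 bases and the genes 2-fold higher one of 6950.5 bases, against 25086.0 for all genes. After ischemic injury the medians were 34562.5 bases for lower and 10109 bases for higher genes. The part of this in the higher and lower genes was not tested, and the study's methods name a range of Cell Ranger versions without saying which library had which.

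Of 20 barrier transporters 1, Slc38a5, was 2-fold higher after each injury, where 0.757% and 1.05% of all genes were higher, and the median log2 ratio of the list was 0.35 and 0.25 (0.21 and 0.10 against clusters 10 and 13). Slc2a1, the glucose transporter of the barrier, stood at 1556, 1798 and 1788 CPM. Mfsd2a, the lipid transporter that restrains transcytosis, stood at 272, 273 and 207 CPM. Abcb1a, the drug efflux pump, stood at 1637, 1677 and 1716 CPM. Of the 10 junction genes that passed the filter, 0 were 2-fold apart, and Ocln, which encodes occludin, stood at 222, 270.0 and 268 CPM. Plvap, which marks leaky fenestrated endothelium, stood at 0, 0.406 and 2.06 CPM, and none of the 6 caveola genes past the filter was 2-fold apart.

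All 19 Wnt signalling genes passed the filter. None was 2-fold apart in either comparison, which is near the shares of all genes (0.757% higher and 2.36% lower after physical, 1.05% and 2.29% after ischemic injury), and their medians were -0.063 and 0.010. Lef1, the transcription factor through which Wnt acts, stood at 577, 599 and 634 CPM. Axin2, a classical Wnt target, stood at 119, 109 and 95.7 CPM. Apcdd1, a Wnt antagonist that is itself a target, stood at 299, 404 and 386 CPM.

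Genes of growth and repair were near the background, with 0.757% and 1.05% of all genes 2-fold higher. Of 14 tip cell and angiogenesis genes past the filter, 0 and 1 were 2-fold higher after physical and ischemic injury, the latter being Adm, a vasodilator peptide (21.6, 38.5 and 58.3 CPM). Adm was under 30 CPM in the naive cells and passed the filter only through the injured libraries, so its count is a description. Apln, the apelin ligand of sprouting tip cells, had 0 naive counts and stood at 17.7 and 30.5 CPM, which is 4.38-fold and 7.54-fold the naive limit of 3 counts. Esm1, another tip cell gene, stood at 0, 0.0812 and 0.781 CPM. The growth factor receptor Kdr stood at 526, 479 and 439.8 CPM. Of 20 cell cycle genes only 3 passed the filter and 0 were 2-fold apart, and the proliferation marker Mki67 stood at 0, 4.14 and 1.63 CPM, the naive limit being 4.04 CPM. A change in cycling was not detectable at the naive depth.

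Flow and tone genes included 1 or 0 members per list that were 2-fold lower, where 2.36% and 2.29% of all genes were. Thbd, the anticoagulant receptor thrombomodulin, stood at 289.9 CPM in naive, 134 in physically injured and 133 in ischemic endothelial cells, the 1 of 6 flow-responsive genes that was 2-fold lower in each comparison. Klf2 and Klf4, the flow-induced transcription factors, stood at 5466, 4739 and 4320.2 CPM and at 2861, 2603 and 2449 CPM. Edn1, the endothelin-1 precursor, stood at 202, 276 and 278 CPM. Nos3, the endothelial nitric oxide synthase that L-NAME inhibits, stood at 233, 199 and 231 CPM. Of 7 endothelin and nitric oxide genes past the filter 1 was 2-fold lower, Gucy1b1, a guanylate cyclase subunit of mural cells (99.8, 4.87 and 1.49 CPM, with 35.4 in clusters 10 and 13). Gucy1b1 was under 30 CPM in both injured libraries and passed the filter only through the naive cells, so its count is a description. Rgcc, a cell cycle regulator listed here as a capillary gene, stood at 804, 422 and 322 CPM and was the 1 of 10 capillary genes past 2-fold, after ischemic injury.

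Interferon response and antigen presentation genes also had no member 2-fold higher, beside 0.757% and 1.05% of all genes, so these counts are near the background, and 2.36% of all genes were 2-fold lower after physical injury. Of 19 interferon response genes 0 were 2-fold higher, and 2 (Ifitm1 and Ifi27l2a) were 2-fold lower after physical injury, of which Ifitm1 stood at 83.6 CPM in all naive cells but 40.3 in clusters 10 and 13. Of 12 class I antigen presentation genes past the filter 0 were higher and 1, H2-Q4, was lower after physical injury (173, 73.8 and 99.6 CPM). Of 13 hypoxia and glycolysis genes 1 was higher after ischemic injury, Adm, which passed the filter only through the injured libraries. Of 14 TGF-beta and mesenchymal genes 0 were 2-fold apart in either comparison.

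To describe the spread from artery to vein, cells thinned to 1500 UMIs were marked by 2 short gene scores. A cell was called arterial-marked with 2 or more UMIs of 8 arterial genes (Gkn3, Sema3g, Bmx, Vegfc, Efnb2, Hey1, Stmn2 and Fbln5) and more of these than of 4 venous genes (Slc38a5, Nr2f2, Ephb4 and Il1r1), and venous-marked in the reverse case. These classes are ranges of a score and not cell types, and of 3259 cells 903 had a highest score of 1 UMI and 427 of 2 UMIs, next to the threshold. Arterial-marked cells were 24 of 120 (20%, 13.3 to 28.3) in the naive library, 333 of 1680 (19.8%, 17.9 to 21.8) after physical injury and 357 of 1459 (24.5%, 22.3 to 26.8) after ischemic injury. Venous-marked cells were 13 (10.8%, 5.90 to 17.8), 208 (12.4%, 10.8 to 14.1) and 187 (12.8%, 11.1 to 14.6). The intervals overlapped between all libraries, except between the physical and the ischemic arterial shares. Of the venous score genes, Slc38a5 was itself 2-fold higher after both injuries and Il1r1 after ischemic injury. The venous class thus partly rests on genes that differed between the libraries. With Il1r1 left out the venous-marked shares were 10.0%, 9.40% and 8.70%, with the naive library highest. The shares and their order depended on depth: at 3000 UMIs per cell the arterial-marked shares were 38.0%, 27.1% and 31.8%, with the naive library highest, and without thinning the venous-marked shares were 23.9%, 36.2% and 38.2%.

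Genes that the scores did not use followed the same axis. Their lists were chosen with earlier results of these data known, so the counts here are a description. Of 15 held-out arterial genes, 14 were higher in arterial-marked than in venous-marked cells of the naive library and all 15 in each injured library. Of 12 held-out venous genes, 12 were higher in the venous-marked cells of each injured library, and 7 in those of the naive library, where 4 were at 0 in both classes. Past 2-fold in the direction of each list were 8, 14 and 14 arterial genes and 6, 10 and 12 venous genes in the naive, physical and ischemic libraries. Among all 5416 genes, 21.2%, 3.19% and 3.67% were 2-fold higher in arterial-marked cells and 12.5%, 2.38% and 2.99% in venous-marked cells. The share of all genes higher in either class without a fold limit was not counted. The median log2 ratio of all genes, arterial-marked over venous-marked, was 0.12, 0.022 and 0.039. The naive classes held few cells and the naive venous-marked class carried mural transcripts, and the part of either in the naive shares was not tested.

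Clu, the secreted chaperone clusterin, stood at 159, 206 and 203 CPM in arterial-marked and at 0, 5.61 and 5.47 CPM in venous-marked cells of the naive, physical and ischemic libraries. Alpl, alkaline phosphatase, stood at 225, 322 and 306 CPM against 67.1, 11.2 and 7.96 CPM. Mgp, an inhibitor of calcification, stood at 767, 1536 and 1824 CPM against 302, 219.5 and 271 CPM. On the venous side Tmsb10, an actin-binding peptide, stood at 1794, 2118 and 2203 CPM in venous-marked and at 208, 204 and 215 CPM in arterial-marked cells. Tmsb10 thus had nearly the same arterial and venous levels in all 3 libraries.

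The naive venous-marked class is a weak point of this scale. It held 13 cells with 59650 UMIs, and 8 of them had more than 1% mural UMIs, with a class median of 1.78%, against 4 of the 24 naive arterial-marked cells. Nr2f2, a venous score gene, stood at 837 CPM in the other cells of the naive library, so mural transcripts can enter that score. Without cells over 1% mural UMIs, venous-marked cells were 6.49% and arterial-marked cells 26.0% of the naive cells. In the venous-marked cells of the injured libraries 0 cells were over 1%.

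**Figure D4:**
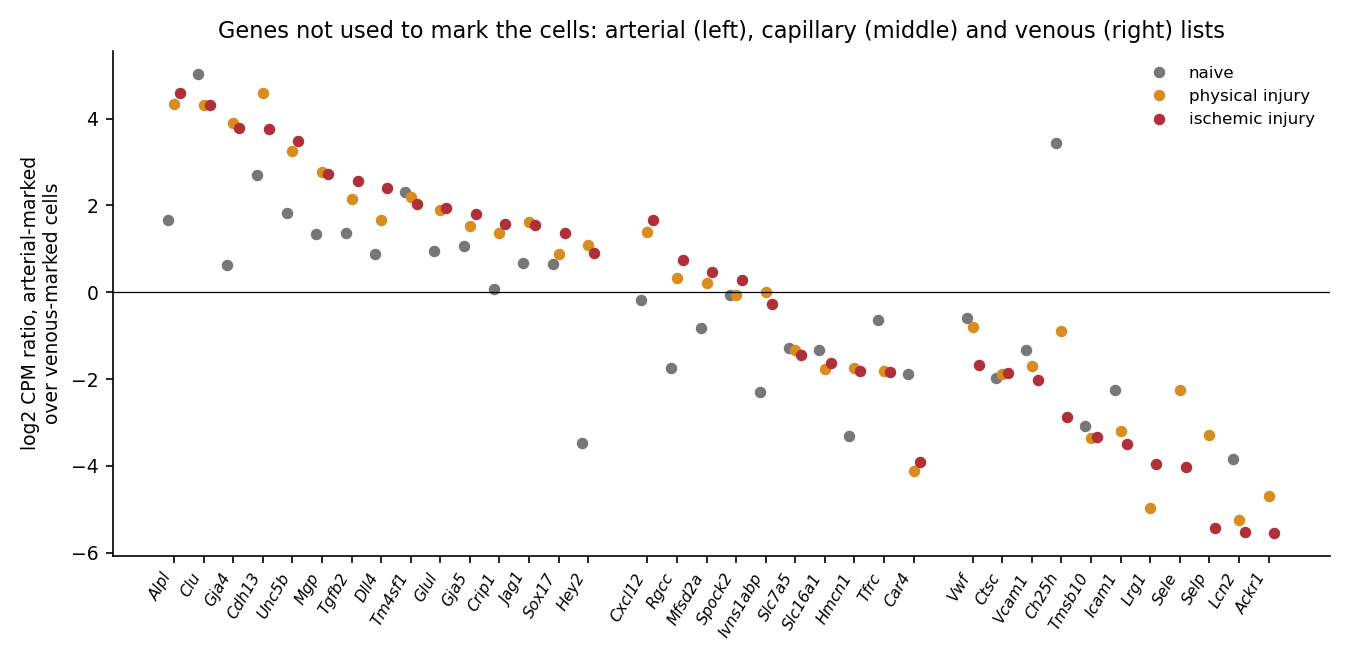
Log2 ratio of CPM between arterial-marked and venous-marked endothelial cells for 36 genes that were not used to mark them, in the arterial (left), capillary (middle) and venous (right) lists, with a point per library; genes with 0 counts in both classes of a library have no point there. In the physical and ischemic libraries each arterial gene lies above 0 and each venous gene below it; the naive points scatter more, and Hey2 and Ch25h have the opposite sign there.

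Most capillary genes were highest in unmarked cells. Of the 10, 9 were highest there in the naive library and 7 in each injured library. The others, 1 in the naive and 3 in each injured library, were highest in venous-marked cells. Of the 20 barrier transporters, 13 in the naive and 8 in each injured library were also highest in unmarked cells. The share of all genes highest in unmarked cells was not counted, so these counts are a description. Car4, a carbonic anhydrase of the capillary surface, stood at 164, 56.3 and 42.7 CPM in arterial-marked cells and at 620.3, 1061 and 711 CPM in venous-marked cells. Cxcl12, a chemokine, showed the other slope in the injured libraries, with 1986 and 1699 CPM in arterial-marked and 755 and 534 CPM in venous-marked cells. Barrier transporters were likewise uneven. Slc6a6, the taurine transporter, stood at 2333, 2725 and 2889.6 CPM in arterial-marked and 889, 1330.4 and 1302 CPM in venous-marked cells, whereas Slc22a8, an organic anion transporter, stood at 115, 139 and 112 CPM against 386, 351 and 296 CPM.

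In the injured libraries most of the adhesion group was higher in venous-marked than in arterial-marked cells. Of its 20 members, which include the venous score gene Il1r1, 16 were after physical and 17 after ischemic injury, 12 and 14 of them past 2-fold, beside 2.38% and 2.99% of all genes. In the naive library 4 were higher in venous-marked and 12 in arterial-marked cells, the rest being at 0 in both. Among the 12 members in neither venous list, 8 and 9 were higher in venous-marked cells of the injured libraries, 5 and 6 past 2-fold, and 0 in those of the naive library. The share of all genes higher in venous-marked cells without a fold limit was not counted, so the counts without that limit are a description. Icam1 stood at 386, 699.8 and 1121 CPM in venous-marked cells of the naive, physical and ischemic libraries, at 34.7, 186 and 240.4 CPM in unmarked cells, and at 76.7, 72.3 and 95.5 CPM in arterial-marked cells. A rise as large as that in unmarked cells was not seen in arterial-marked cells. The naive arterial-marked and venous-marked values rest on few UMIs, so a smaller difference in arterial-marked cells was not detectable at this depth. Selp stood at 0, 43.7 and 209.9 CPM in venous-marked cells and at 0 in the arterial-marked cells of all 3 libraries. Ackr1 stood at 0, 163 and 282 CPM in venous-marked cells, against 0, 1.56 and 1.14 CPM in arterial-marked cells. Lcn2 stood at 67.1, 289 and 318 CPM against 0, 2.74 and 2.00 CPM.

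Lrg1 stood at 0, 250.1 and 313 CPM in venous-marked cells and at 0, 10.7 and 77.7 CPM in unmarked cells. Cxcl1 stood at 33.5, 231 and 459.7 CPM in venous-marked and at 43.8, 23.5 and 30.5 CPM in arterial-marked cells. Among Icam1, Vcam1, Selp and Sele, Vcam1 had the highest arterial-marked level, at 137, 162 and 205 CPM, beside 352, 540.1 and 848 CPM in venous-marked cells. Of the held-out venous genes Vwf differed least along the axis in both injured libraries, with 318 and 344 CPM in arterial-marked and 559 and 1104 CPM in venous-marked cells after physical and ischemic injury. Il1r1, the interleukin-1 receptor, is both a venous score gene and a member of the adhesion list, and 7 genes are in both the adhesion list and the held-out venous list (Vcam1, Icam1, Selp, Sele, Lcn2, Ch25h and Lrg1), so the 2 lists are not separate evidence. Some adhesion list members ran the other way, such as Socs3 with 619 and 647 CPM in arterial-marked and 264 and 402 CPM in venous-marked cells of the injured libraries.

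**Figure D5:**
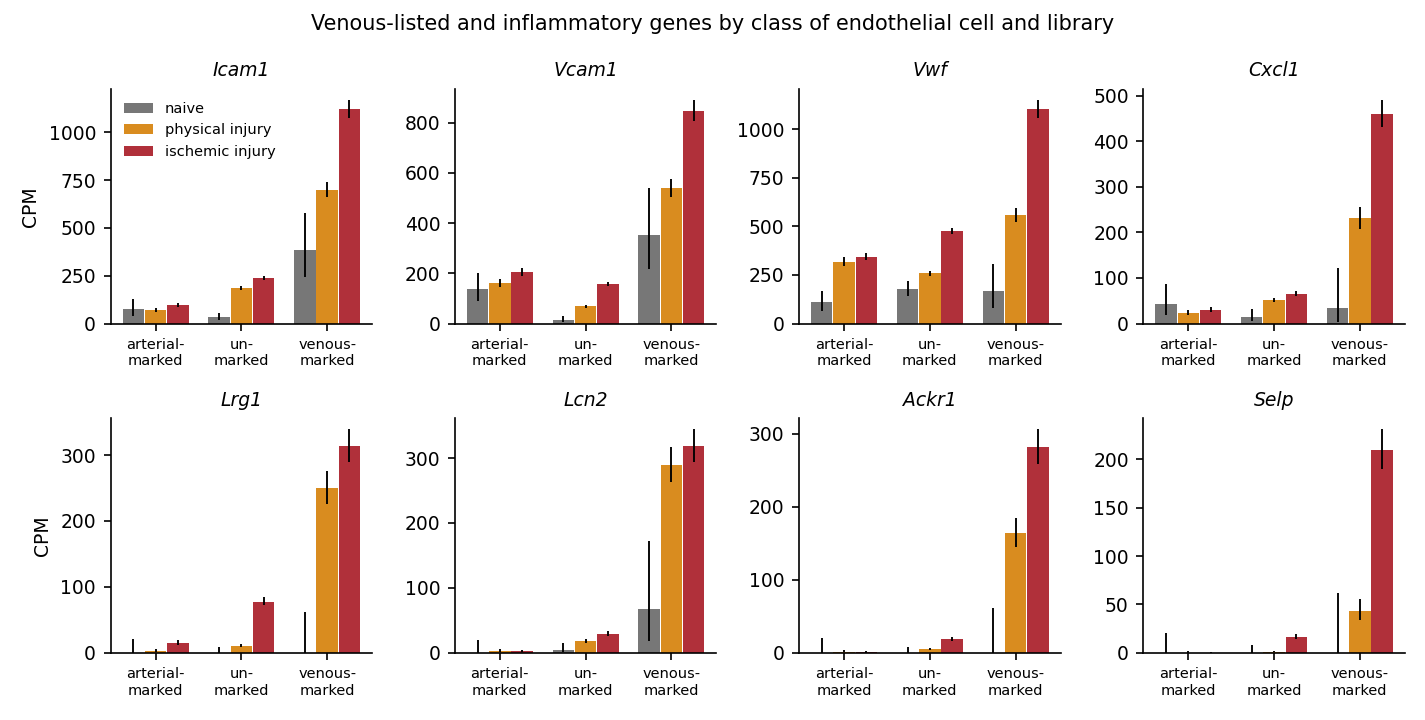
CPM of 8 genes in arterial-marked, unmarked and venous-marked endothelial cells of each Tbx18-tdT library, as bars from 0 with 95% counting intervals as black lines. In each panel the venous-marked bars of the injured libraries are the tallest, for example 699.8 and 1121 CPM for Icam1, and the naive bars for Lrg1, Ackr1 and Selp are at 0.

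The endothelial cells of the NG2 line, from other libraries of the same 3 conditions, give the nearest comparison. Of the genes 2-fold higher in the Tbx18 line, 33 of 41 after physical injury and 53 of 57 after ischemic injury were also higher than naive there, where 49.4% and 47.5% of all genes were. Of those lower, 67 of 128 and 100 of 124 were also lower, against 50.6% and 52.5% of all genes. Past 2-fold in the NG2 line as well were 11 of the 41 and 25 of the 57 higher genes, and 8 of the 128 and 13 of the 124 lower genes, where 1.31% and 1.48% of all genes were 2-fold higher and 0.388% and 0.905% 2-fold lower. The higher genes shared past 2-fold include the 4 hemoglobin genes in both comparisons. In the NG2 line 8 of 404 physically injured and 9 of 453 ischemic endothelial cells held nearly all hemoglobin UMIs. Lrg1, Lcn2, Ptgs2 and Scgb3a1 are also among them and passed the filter only through the injured libraries of the Tbx18 line. The counts of shared higher genes are therefore a description. In NG2-tdT endothelial cells Icam1 stood at 45.5, 238 and 174 CPM, Lrg1 at 0, 40.4 and 55.0 CPM, and Ackr1 at 0, 23.8 and 37.1 CPM. Icam1 and Vcam1 (73.7, 187 and 116 CPM) were higher after physical than after ischemic injury there, the reverse of the Tbx18 line, whereas Vwf (191, 282 and 475 CPM) kept the same order. Hspa1b stood at 469, 604 and 362 CPM and Gm48099 at 150.5, 90.8 and 53.1 CPM. The NG2-tdT endothelial cells carried pericyte transcripts in each condition, with Vtn at 1593, 1342 and 1144 CPM.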

How the data were processed

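Each of the 6 libraries was sorted tdTomato-positive cortex sequenced with droplet 3' chemistry. Per the labels the authors aligned reads with Cell Ranger 7.0.0 to GRCm38 (mm10), while the study's methods name a range of versions ending there, with no version per library. They deposited tables of UMI counts per gene and cell, not normalized, with cluster numbers, a deposited percent of mitochondrial counts and the library of each cell. The study's methods name filters of at least 200 genes, 2 SD around the mean genes and counts, and at most 12% mitochondrial counts; 6094 of the 6578 deposited Tbx18-tdT cells met them as read here, and all were kept. The methods integrate the 3 libraries before clustering. They do not state a doublet step and none was added; cells above the 95th percentile of UMIs were left out as an alternative.

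Counts of cluster 0 cells were summed per library and scaled to CPM (741683 to 14091363 UMIs per library), with exact Poisson intervals. Shares carry exact Clopper-Pearson 95% intervals. Ratios used a pseudocount of 5 CPM over genes with a mean of at least 30 CPM, leaving out mitochondrial genes, Gm42418 and AY036118; 2-fold was a log2 ratio of 1 or more either way. Named genes were the 12 largest ratios each way among genes at least as high in endothelial as in other cells, the 5 largest each way without that condition, and members of the gene lists; 1 venous gene is counted but not reported by name here. In 31 lists, members were chosen with earlier results of these data known, as was the cell population. Naive cells were matched to the naive table by barcode (686 of 686, with equal UMIs). Scores used cells thinned to 1500 UMIs. Positions and intron lengths came from GENCODE M21 by symbol. Sums and ratios were tested on simulated data. Python 3.11.15, numpy 2.4.6, scipy 1.17.1 and pandas 2.3.3 were used, with TMM factors from edgeR 4.0.16 as an alternative.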

Additional observations from a re-analysis of the deposited data

Results flagged for a closer look

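Hsph1, a heat shock co-chaperone, differed in direction between the lines. After ischemic injury its log2 ratio to naive was -1.69 in Tbx18-tdT endothelial cells and 0.71 in NG2-tdT endothelial cells, where the counting interval was 0.087 to 1.65. Its levels were 178 and 51.7 CPM in the naive and ischemic cells of the Tbx18 line, and 25.1 and 44.3 CPM in those of the NG2 line. Each group is 1 library, and the difference between the lines was not tested.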

How the results depend on the processing

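Each condition is 1 library, so no replicate could be left out, and no difference between conditions has a replicate check. No paired analysis was possible because each group holds 1 sample. The naive library, with 159 endothelial cells and 741683 UMIs, sets the precision, and leaving out its doubtful cells is the closest check. The alternatives with clusters 10 and 13, cells above the 95th percentile of UMIs, hemoglobin-rich cells, Il1r1 left out of the venous score and another random draw of UMIs were chosen after seeing the data.

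Of the 79 ratios of named genes past 2-fold, 79 stayed past it with TMM factors or a pseudocount of 1 CPM, 74 without cells over 1% mural UMIs, 74 against clusters 10 and 13, 66 against cluster 10 alone, 74 with the mean of each cell's CPM and 71 without hemoglobin-rich cells. Many of these genes were picked for the size of their ratio. A smaller pseudocount can only widen a ratio, and the TMM factors ranged only from 0.973 to 1.05, so these 2 alternatives could hardly change the count. Ccn3, which is counted in 118 UMIs of the naive cells and 1 of cluster 10, turned from -3.30 and -2.99 (physical and ischemic log2 ratios) to 1.04 and 1.35 under the filters of the methods, to 1.21 and 1.52 against cluster 10 alone, and to 1.03 and 1.32 without cells above the 95th percentile of UMIs. Without hemoglobin-rich cells the ischemic ratios of Hba-a1, Hba-a2 and Hbb-bt were -0.013, -0.30 and -0.083.

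The counts of 2-fold genes followed the filter. For higher and lower genes after physical injury, then higher and lower genes after ischemic injury, they were 112, 331, 127 and 312 at a mean of at least 10 CPM, 12, 32, 23 and 34 at 100 CPM, and 187, 652, 233 and 643 with no filter beyond 1 count. With the mean of each cell's CPM they were 110, 356, 145 and 320. Against cluster 10 alone the higher genes were 84 and 105 after physical and ischemic injury, and with injured sums thinned to the naive total they were 64 after physical injury. After ischemic injury the higher genes were 86 under the filters of the methods and 86 without cells above the 95th percentile, and the lower genes were 77 without cells over 1% mural UMIs and 75 against clusters 10 and 13. The totals against clusters 10 and 13 rest on the filter as applied to those cells. Their gene set therefore differs from that of the 93 of 124 given above.

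Endothelial shares kept their order of naive, physical and ischemic under each alternative. With cells called by marker lists they were 5.54%, 34.7% and 53.9%. Under the filters of the methods the physical and ischemic shares were 48.3% and 76.8%, and among endothelial and mural clusters 52.6% and 84.4%. Without cells over 1% mural UMIs the naive share was 11.7%.

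Shares of marked cells depended on depth and threshold. Arterial-marked shares in the naive, physical and ischemic libraries were 38.0%, 27.1% and 31.8% at 3000 UMIs per cell, 32.7%, 32.2% and 40.1% without thinning, and 33.3%, 29.5% and 35.4% at 1 or more score UMI. The physical and ischemic arterial shares were 14.1% and 18.8% at 3 or more score UMIs and 14.5% and 20.1% at 1000 UMIs. Venous-marked shares in the 3 libraries were 23.9%, 36.2% and 38.2% without thinning, 25.8%, 28.5% and 26.5% at 1 or more score UMI, and 2.50%, 4.58% and 6.51% at 3 or more. The physical and ischemic venous shares were 23.7% and 22.6% at 3000 UMIs and 7.38% and 7.44% at 1000 UMIs. With Il1r1 left out of the score the naive, physical and ischemic venous shares were 10.0%, 9.40% and 8.70%, the reverse of the main order. The order of the naive arterial share among the libraries thus depended on the depth.

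The log2 ratio of arterial-marked over venous-marked cells, for the summed held-out genes of a list, kept its sign under each alternative. Its values were 1.12, 2.08 and 2.20 for arterial genes and -2.17, -2.53 and -2.79 for venous genes in the naive, physical and ischemic libraries. The naive arterial and venous ratios were 1.35 and -2.78 without cells over 1% mural UMIs and 1.36 and -2.74 in clusters 10 and 13. Another random draw gave 1.41 for naive arterial and -2.69 for ischemic venous genes. At 3 or more score UMIs the naive venous ratio was -0.30, with physical ratios of 2.14 and -2.78 and ischemic ratios of 2.32 and -3.00. With Il1r1 left out the naive venous ratio was -1.27, and the physical and ischemic arterial ratios were 2.00 and 2.05. Physical and ischemic arterial ratios were 2.37 and 2.33 at 1000 UMIs, 2.02 and 2.11 at 3000 UMIs, 1.84 and 1.95 without thinning and 1.82 and 1.99 at 1 or more score UMI. Venous ratios were -2.31 and -2.50 at 3000 UMIs, -2.01 and -2.22 without thinning, -1.92 and -2.19 at 1 or more score UMI, and -2.46 in the ischemic library at 1000 UMIs. The cause of these shifts was not tested.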
